A study of Mus musculus with 24 samples.

Results

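The Acsm genes encode medium-chain acyl-CoA synthetases, and 4 of them, Acsm5, Acsm2, Acsm1 and Acsm3, were taken by symbol from the 37315 genes of the kidney allelic count table. All 4 reached 50 pooled counts in each kidney experiment, as did 11298 genes of the table in all. The study asked how reproducibly allelic imbalance (AI) is measured between technical replicate RNA-seq libraries. All kidney libraries were prepared from aliquots of 1 total RNA, extracted with Trizol and DNase-treated, from the left kidney of an adult female F1 mouse of the cross 129S1/SvImJ x CAST/EiJ, with the drug treatment given as control. In Experiment 1, 6 libraries were made with the NEBNext Ultra RNA poly-A kit from 100 ng of RNA. In Experiment 2, 6 libraries were made with the SMARTseq v4 kit from 10 ng, and in Experiment 3, 6 libraries with that kit from 100 pg. Further libraries came from Abl.1 and Abl.2, immortalised clonal B cell lines of the same cross, with 2 SMARTseq libraries of 10 ng per line and a repeat sequencing run of both Abl.2 libraries. The kidney replicates share 1 animal and 1 RNA, so no p-value below measures the spread between animals. The p-values measure the spread between libraries. Those of the tests with a correction coefficient (QCC, defined below) take that spread over many genes and not from the gene itself. Each Abl line is 1 clone.

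Acsm enzymes sit in the mitochondrial matrix, where they use ATP to join medium-chain fatty acids, and aromatic acids such as benzoate, to coenzyme A. The resulting acyl-CoA can enter beta-oxidation or be passed to glycine by glycine N-acyltransferases, a route by which liver and kidney clear aromatic acids into urine. The kidney proximal tubule is rich in mitochondria and burns fatty acids, and ACSM2 is known as an enzyme of this tubule segment.

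The libraries held 6138693 to 6702351 allelic counts (Experiment 1), 6360257 to 6397679 (Experiment 2) and 6587951 to 6616994 (Experiment 3). AI is the count in the maternal column divided by the count in both columns. Of all counts, 46.6% to 46.8% fell in the maternal column of Experiment 1, against 48.0% to 48.1% for Experiment 2 and 48.1% to 48.3% for Experiment 3. Columns are called by their deposited names here, but for 11 of 11 imprinted genes the larger column was the one opposite to the known parental origin. Which strain each column holds was therefore not settled. Among these genes, Phlda2 lay near balance, with a pooled AI of 0.460. A kidney origin was visible in the marker genes: 13 of 14 proximal tubule markers reached 50 pooled counts in each experiment, and Miox was at 0.

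Acsm5, Acsm2, Acsm1 and Acsm3 lie head to tail on the plus strand of chromosome 7, together with the fifth family gene Acsm4, over 268051 bases (GRCm38, GENCODE vM21). Acsm5 (ENSMUSG00000030972) lies at 119519463 to 119545551, Acsm2 (ENSMUSG00000030945) at 119554340 to 119600690 and Acsm1 (ENSMUSG00000033533) at 119607026 to 119662515. The gap from Acsm5 to Acsm2 is 8788 bases and the gap from Acsm2 to Acsm1 is 6335 bases. Acsm4 (ENSMUSG00000047026) at 119690026 to 119714565 separates these 3 genes from Acsm3 (ENSMUSG00000030935) at 119760923 to 119787513. The coding sequences of the 5 genes shared between 61.3% (Acsm1 and Acsm3) and 66.9% (Acsm4 and Acsm3) of aligned bases, with 64.4% between Acsm2 and Acsm1. No stretch of 50 identical bases was shared by any of the 10 pairs of genes. Acsm5 shares 104 of its 3799 exon bases with Pdilt and Acsm3 shares 1962 of its 4936 with Eri2, and the authors left shared regions out of their counts.

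The promoters of the 3 members that carried nearly all counts of the family are shown, since these neighbouring genes differed in AI. The sequences are RefSeq reference sequence of GRCm38.p6, from 250 bases before to 50 bases after the RefSeq start, and were read from neither parental strain. For Acsm1 and Acsm5 this start lies inside the GENCODE span given above and not at its first base. The bases around the GENCODE starts of these genes were not searched. Capitals mark matches to 3 motifs searched in each window, namely GTTAAT on both strands (the core of the HNF1 motif, a factor of tubule genes), TATAAA on the gene's strand (the TATA box) and AGGTCA on both strands (the nuclear receptor motif). The Acsm2 window, chr7:119554090-119554389, plus strand, holds GTTAAT in reverse complement at position -166 from the start and TATAAA at position -28. The Acsm1 window, chr7:119617562-119617861, holds AGGTCA in reverse complement at position -107, and the Acsm5 window, chr7:119526015-119526314, holds none of the 3 motifs.
Acsm2: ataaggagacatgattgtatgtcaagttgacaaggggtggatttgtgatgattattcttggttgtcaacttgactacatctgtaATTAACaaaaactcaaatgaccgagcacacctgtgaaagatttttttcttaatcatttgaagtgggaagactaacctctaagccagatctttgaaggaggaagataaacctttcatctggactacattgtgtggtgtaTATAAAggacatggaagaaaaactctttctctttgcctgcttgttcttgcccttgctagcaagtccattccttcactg
Acsm1: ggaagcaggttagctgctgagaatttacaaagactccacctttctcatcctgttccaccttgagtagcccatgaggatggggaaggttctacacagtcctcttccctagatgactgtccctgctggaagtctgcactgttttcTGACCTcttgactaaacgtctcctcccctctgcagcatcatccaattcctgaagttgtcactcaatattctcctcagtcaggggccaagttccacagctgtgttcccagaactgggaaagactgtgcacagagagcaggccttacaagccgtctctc
Acsm5: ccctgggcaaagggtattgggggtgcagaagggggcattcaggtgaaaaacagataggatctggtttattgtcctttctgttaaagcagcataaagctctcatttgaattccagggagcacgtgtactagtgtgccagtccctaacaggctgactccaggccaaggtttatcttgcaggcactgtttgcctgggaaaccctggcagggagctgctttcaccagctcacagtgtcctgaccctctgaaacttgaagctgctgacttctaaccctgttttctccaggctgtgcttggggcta
The motifs do not overlap one another in these windows. Among 32851 promoter windows of the same length, 7.10% held GTTAAT, 8.32% held TATAAA and 16.3% held AGGTCA. RefSeq gives Acsm2 another start, and the windows of that start, of Acsm3 and of Acsm4 held none of the 3 motifs. The matches are descriptions of the letters and were not tested for use.

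Acsm1, Acsm2 and Acsm5 carried nearly all allelic counts of the family, and Acsm3 was close to the limit of detection. Levels are given as CPM, the allelic counts of a gene with each library scaled to 1000000 allelic counts, and are read here between experiments within a gene. Acsm1, known as a butyryl-CoA synthetase, had 1346, 1424 and 1712 CPM (lowest, median and highest library) in Experiment 1, 1223, 1259 and 1271 CPM in Experiment 2 and 1221, 1258 and 1279 CPM in Experiment 3. Acsm2 had 1286, 1301 and 1349 CPM in Experiment 1, 1359, 1410 and 1441 CPM in Experiment 2 and 1200, 1227 and 1339 CPM in Experiment 3. For Acsm1 all Experiment 1 libraries lay above all SMARTseq libraries, and for Acsm2 all Experiment 2 libraries lay above those of Experiments 1 and 3. Acsm5 had 365, 391 and 408 CPM in Experiment 1, 223, 230 and 238 CPM in Experiment 2 and 213, 224 and 242 CPM in Experiment 3. All Experiment 1 libraries lay above all SMARTseq libraries for Acsm5. The CPM ranges of Experiments 1 and 2 lay apart for 3 of the 4 genes, where 63.5% of all genes had ranges apart. They lay apart between Experiments 1 and 3 for 2 genes, Acsm1 and Acsm5 (55.2% of all genes), and between Experiments 2 and 3 for 1 gene, Acsm2 (9.11%). Acsm3, long known as a gene linked to blood pressure in rats, had 1.303, 2.05 and 3.43 CPM, then 0.782, 1.41 and 1.72 CPM, then 0, 1.89 and 4.53 CPM. The 4 genes together held 0.316% ± 0.0135 (SD, n = 6 libraries) of all counts in Experiment 1, 0.289% ± 0.00497 in Experiment 2 and 0.273% ± 0.00427 in Experiment 3.

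**Figure D1:**
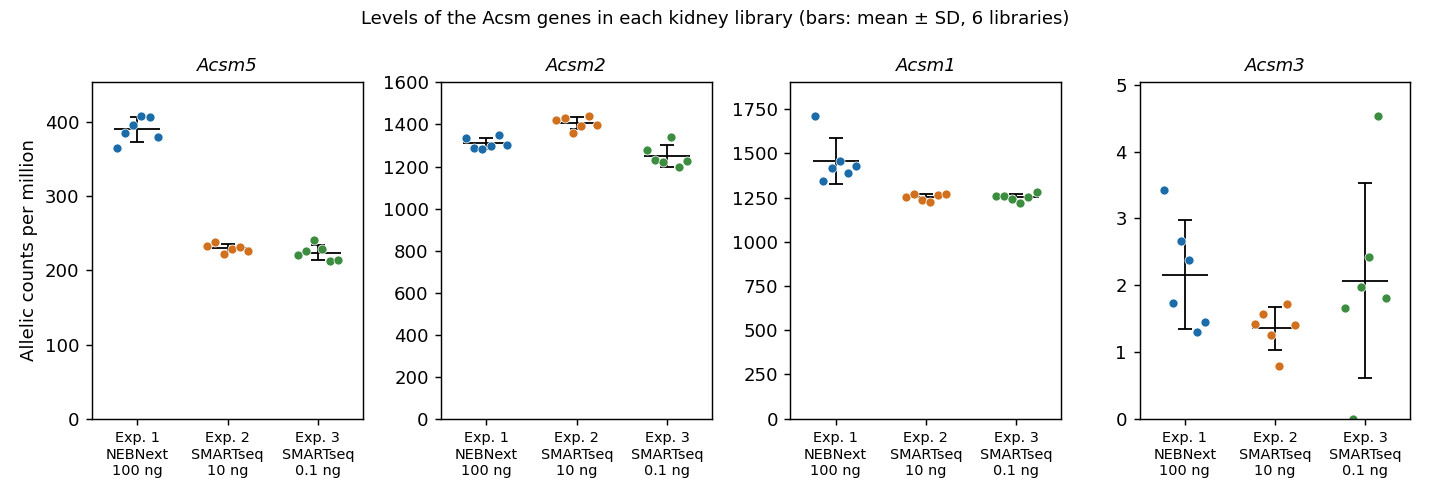
Level of each Acsm gene in each of the 18 kidney libraries, in CPM, with 1 panel and 1 linear axis from 0 per gene, by experiment, with the mean and SD of 6 libraries. Acsm1 and Acsm2 lie between 1200 and 1712 CPM, Acsm5 between 213 and 408 CPM and Acsm3 at or below 4.53 CPM.

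Levels of different genes were compared per length, as CPM per kilobase of exon not shared with another gene. This length joins the exons of all GENCODE transcripts of a gene, 7424 bases for Acsm2 and 2181 for Acsm1. The transcripts with the longest coding sequence had 2099 and 2083 bases, nearly the same length. On this scale Acsm1 was highest in every experiment, with 669 ± 59.6 in Experiment 1 (SD, n = 6), 574 ± 8.97 in Experiment 2 and 575 ± 9.06 in Experiment 3. Acsm2 followed with 176 ± 3.59, 190 ± 4.04 and 168 ± 6.91, and Acsm5 with 106 ± 4.57, 62.3 ± 1.45 and 60.7 ± 2.90. Acsm3 was at 0.726, 0.456 and 0.695 on average. None of the ranges of 2 neighbouring genes in this order overlapped within an experiment. Only reads over SNPs were counted, and the number of SNPs in each gene was not analysed here, so this order mixes transcript level with SNP density. The order of Acsm1 and Acsm2 also depends on the length chosen. Before division by length, mean CPM was higher for Acsm1 in Experiment 1 (1459 against 1310) and for Acsm2 in Experiment 2 (1408 against 1253). In Experiment 3 it was 1254 for Acsm1 and 1249 for Acsm2.

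The measured levels of the 3 abundant members differed between Experiments 1 and 2 by different amounts. Kit and input differ together between Experiment 1 and the SMARTseq experiments, so their parts cannot be told apart. In edgeR's quasi-likelihood test on total allelic counts with TMM scaling and Benjamini-Hochberg adjustment, Acsm2 was 1.38-fold higher in Experiment 2 than in Experiment 1 (log2 difference 0.46 ± 0.025 SE, adjusted p = 1.32e-15). Acsm1 was 1.10-fold higher (0.14 ± 0.041, adjusted p = 0.0038), and Acsm5 fell by 0.41 ± 0.036 on the log2 scale (adjusted p = 7.00e-11). Such calls were the rule between these kits, since 77.6% of 12012 genes passed the test, 38.1% higher and 39.4% lower in Experiment 2. For Acsm3 the log2 difference was -0.32 ± 0.35 (adjusted p = 0.410), with a 95% interval from -0.999 to 0.37.

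Against the 100 pg libraries of Experiment 3 the pattern had the same order, but both comparisons use the Experiment 1 libraries. Acsm2 was 1.22-fold higher in Experiment 3 than in Experiment 1 (log2 0.29 ± 0.031, adjusted p = 9.68e-08), and Acsm5 fell by 0.45 ± 0.046 on the log2 scale (adjusted p = 3.29e-08). Acsm1 was 1.10-fold higher (log2 0.13 ± 0.048, adjusted p = 0.0186). That call for Acsm1 was lost without Experiment 1 replicate 2 (log2 0.10, adjusted p = 0.0750), replicate 3 (0.12, adjusted p = 0.0572), replicate 5 (0.11, adjusted p = 0.0624) or replicate 6 (0.12, adjusted p = 0.0531). The background was 69.4% of 12054 genes called, 34.7% higher and 34.7% lower. Acsm3 differed by 0.28 ± 0.55 (adjusted p = 0.663) and turned to -0.10 without Experiment 3 replicate 5.

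Between the SMARTseq inputs of 10 ng and 100 pg, where 15.7% of 11761 genes were called (8.77% higher and 6.95% lower), 1 of the 4 genes passed. Acsm2 fell by 0.18 ± 0.023 on the log2 scale (adjusted p = 3.19e-05). The difference was -0.0031 for Acsm1 (adjusted p = 0.936, 95% interval -0.037 to 0.031) and -0.04 for Acsm5 (adjusted p = 0.532, interval -0.11 to 0.03). For Acsm3 it was 0.60 ± 0.53 (adjusted p = 0.523).

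The direction of the Acsm1 calls depended on the scaling. With library totals in place of TMM, the median of all genes moved by -0.355 between Experiments 1 and 2 and by -0.354 between Experiments 1 and 3. Acsm1 then fell by 0.22 in both comparisons (adjusted p = 9.51e-06 and 0.000158), in the direction of its CPM, and Acsm2 fell by 0.07 between Experiments 1 and 3 (adjusted p = 0.0447). The share of calls that were higher moved from 49.2% to 35.1% and from 49.96% to 35.1% in these comparisons. Acsm2 between Experiments 1 and 2 and Acsm5 in both kept their direction and passed the test under either scaling.

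A ratio within a library needs no scaling, so each member was also expressed as a share of the summed counts of the 4 genes. The 4 shares of a library add up to the whole, so a share can fall because another rises. The tests of shares are therefore not independent of one another. Acsm2 took 41.5% ± 1.35 of the family counts in Experiment 1 (SD, n = 6), 48.7% ± 0.350 in Experiment 2 and 45.8% ± 1.19 in Experiment 3. Acsm1 took 46.1% ± 2.12, 43.3% ± 0.408 and 45.9% ± 1.22, and Acsm5 took 12.4% ± 0.875, 7.95% ± 0.108 and 8.22% ± 0.384. The Acsm2 share rose by 7.20 percentage points from Experiment 1 to 2 and by 4.29 points from Experiment 1 to 3, and it dropped by 2.91 points from Experiment 2 to 3. None of these ranges overlapped. A like share was not computed for other genes. CPM ranges lay apart for 63.5%, 55.2% and 9.11% of all genes in these comparisons. The exact permutation test over libraries, two-sided, gave p = 0.00216 for each, the smallest that 6 against 6 allows, and a Benjamini-Hochberg adjusted p of 0.00433 over 12 tests. The Acsm5 share fell by 4.43 points from Experiment 1 to 2 and fell by 4.16 points from Experiment 1 to 3, again without overlap and with the same adjusted p. It differed by 0.262 points between the SMARTseq inputs (exact permutation test, adjusted p = 0.150). Under pairing by replicate number this last difference had an adjusted p of 0.0469, and it was 0.333 points without Experiment 3 replicate 6, which also passed.

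The Acsm1 share fell by 2.76 points from Experiment 1 to 2 (exact permutation test, adjusted p = 0.00433, ranges apart) and rose by 2.62 points from Experiment 2 to 3 (adjusted p = 0.0111, ranges overlapping). It differed by -0.133 points between Experiments 1 and 3 (exact permutation test, adjusted p = 0.918). Experiment 1 replicate 1 stood apart, with 1712 CPM of Acsm1, a share of 50.1% for Acsm1 and a share of 10.7% for Acsm5. Without it Acsm1 had 1408 ± 42.8 CPM (n = 5) and 45.3% ± 0.862 of the family counts in Experiment 1. The Acsm5 share was then 12.7% ± 0.287, and the Acsm1 difference between Experiments 1 and 3 turned to 0.674 points. Without Experiment 3 replicate 4 that difference turned to 0.308 points. Acsm3 took 0.0678%, 0.0468% and 0.0760% of the family counts, and no difference between experiments passed (exact permutation tests, adjusted p = 0.127, 0.822 and 0.304). The Acsm3 difference of Experiment 2 against 1 passed without Experiment 1 replicate 5 (-0.0262 points, exact permutation test, adjusted p = 0.0390), and that of Experiment 3 against 2 without Experiment 3 replicate 2 (0.0444 points, adjusted p = 0.00371).

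The members of this gene cluster were biased toward different columns. Acsm2 lay above an AI of 0.5 in 18 of 18 kidney libraries, and Acsm1 and Acsm5 lay below 0.5 in 18 of 18. Acsm2 had AI values of 0.577, 0.590 and 0.606 (lowest, median, highest) in Experiment 1. Experiment 2 gave 0.570, 0.581 and 0.589, and Experiment 3 gave 0.556, 0.586 and 0.606. Acsm1 had 0.365, 0.384 and 0.394, then 0.387, 0.402 and 0.425, then 0.382, 0.416 and 0.430. Acsm5 had 0.396, 0.425 and 0.440, then 0.364, 0.408 and 0.451, then 0.328, 0.422 and 0.460. The lowest Acsm2 library lay above the highest library of either other gene in every experiment, while Acsm1 and Acsm5 overlapped only in Experiments 2 and 3.

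Against an AI of 0.5, pooled counts of 6 libraries were tested with the two-sided proportional test after division by the square of the Quality Correction Coefficient (QCC), the ratio of the observed spread of AI between replicates to the binomial spread. QCC was 1.85 ± 0.175 (SD, 15 pairs of libraries) in Experiment 1, 1.47 ± 0.0136 in Experiment 2 and 2.59 ± 0.0510 in Experiment 3. In Experiment 1 the pairs with replicate 1, which the authors call an outlier, had a QCC of 2.03 to 2.15. The other pairs of that experiment had 1.68 to 1.80. Acsm1 had a pooled AI of 0.382 (QCC-corrected 95% interval 0.374 to 0.389), 0.404 (0.398 to 0.411) and 0.410 (0.398 to 0.421). Its Bonferroni-adjusted p was 2.71e-189, 1.37e-176 and 1.08e-50. All 3 intervals lie on the paternal-column side.

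Acsm2 had a pooled AI of 0.589 (0.581 to 0.597), 0.579 (0.573 to 0.585) and 0.582 (0.570 to 0.593), with adjusted p of 6.74e-97, 1.57e-135 and 9.15e-41. Acsm5 had 0.420 (0.406 to 0.435), 0.411 (0.396 to 0.426) and 0.413 (0.387 to 0.440), with adjusted p of 1.93e-21, 2.25e-26 and 2.82e-06. Of all genes tested, 18% of 10862, 24.4% of 10739 and 14.3% of 10195 were called in Experiments 1, 2 and 3. Calls with the maternal column higher, as for Acsm2, were 9.42%, 13% and 7.4%, and calls with the paternal column higher, as for Acsm1 and Acsm5, were 8.57%, 11.4% and 6.86%. The 3 members were called in each experiment and also when any 1 library was left out. Intervals cover counting error and the spread that QCC carries, which was fitted over many genes and not for each gene. A read over several SNPs was counted at each, and PCR reads are not independent molecules.

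**Figure D2:**
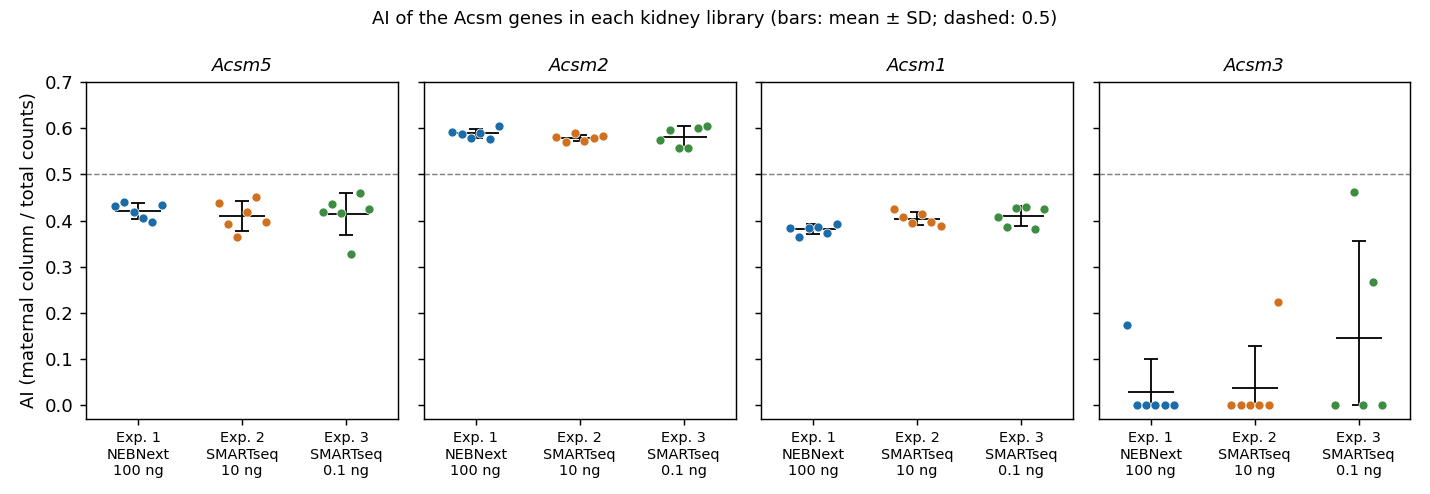
AI (counts in the maternal column divided by counts in both) of each Acsm gene in each of the 18 kidney libraries, by experiment, with the mean and SD of the libraries that had counts, cut at 0 and 1, and a dashed line at 0.5. Acsm2 lies above 0.5 in 18 of 18 libraries, Acsm1 and Acsm5 below it in 18 of 18, and Acsm3 below it in 17 of 17.

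Because the genes lie on the same pair of chromosomes in the same RNA, their AI could be compared library by library. Acsm2 exceeded Acsm1 by 0.208 ± 0.00954 (SD, n = 6), 0.175 ± 0.0178 and 0.172 ± 0.0396 in Experiments 1, 2 and 3, in 6 of 6 libraries each (two-sided exact sign-flip permutation test, p = 0.03125, the smallest that 6 libraries allow, adjusted p = 0.0402 over 9 tests). Acsm5 lay below Acsm2 by an AI difference of -0.168, -0.169 and -0.168 on average, in 6 of 6 libraries each, with the same adjusted p. Acsm5 and Acsm1 differed by 0.0396 in Experiment 1 (6 of 6 libraries, adjusted p = 0.0402). They differed by 0.00607 in Experiment 2 (4 of 6 libraries, exact permutation test, adjusted p = 0.738) and by 0.00444 in Experiment 3 (3 of 6, adjusted p = 0.906). Leaving out Experiment 2 replicate 5 turned the former to -0.0035, and leaving out Experiment 3 replicate 5 turned the latter to -0.0103.

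The makeup of the family counts, which are not divided by gene length, therefore differed between the columns. In the maternal column Acsm2 was the larger part, with 51.8%, 57.6% and 54.5% of family counts in Experiments 1, 2 and 3, against 37.2%, 35.7% and 38.5% for Acsm1 and 11.02%, 6.66% and 6.96% for Acsm5. In the paternal column Acsm1 was the larger part, with 54.0%, 50.6% and 53.1%, against 32.3%, 40.1% and 37.4% for Acsm2 and 13.6%, 9.19% and 9.41% for Acsm5. Summed over the 4 genes, the opposite biases left an AI of 0.472 ± 0.00789, 0.490 ± 0.00719 and 0.488 ± 0.00897 (SD, n = 6), closer to 0.5 than that of any of the 3 abundant members.

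**Figure D3:**
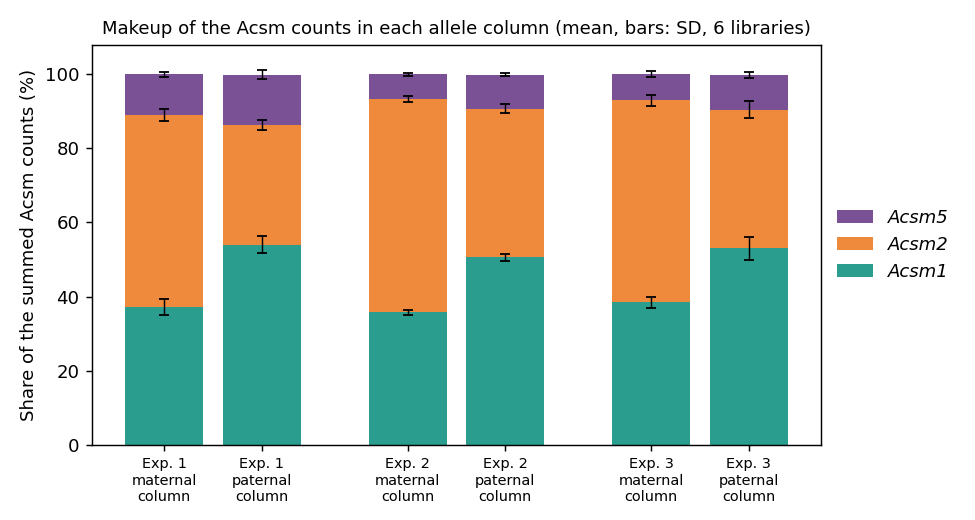
Share of each Acsm gene in the summed counts of the 4 genes, in percent, separately for the maternal and the paternal column of each experiment, as stacked means of 6 libraries with the SD as error bars (Acsm3 is too small to draw). Acsm2 is the largest part of the maternal column (51.8% to 57.6%) and Acsm1 the largest part of the paternal column (50.6% to 54.0%).

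Of the 3 members tested, Acsm1 was called for a difference in AI between experiments, in 1 comparison, and Acsm3 was outside this fit. In edgeR's quasi-likelihood test of the allele by experiment term, the AI of Acsm1 was higher by 0.0231 in Experiment 2 than in Experiment 1 (log2 odds ratio 0.14 ± 0.038 SE, adjusted p = 0.0128), a comparison in which 10.6% of 10127 genes were called. The AI ranges of Acsm1, Acsm2 and Acsm5 overlapped in every pair of experiments, where 6.32% (Experiments 1 and 2), 4.89% (1 and 3) and 1.16% (2 and 3) of all genes had ranges apart. Without Experiment 2 replicate 1 the log2 odds ratio was 0.11 and the adjusted p 0.0521. Each column scaled to its own total gave 0.062 (adjusted p = 0.350), since the maternal share of all counts also differed between these experiments, as given above. That scaling moved the median log2 odds ratio of all genes from -0.00098 to -0.078, and the share of calls that were higher from 53.1% to 33.0%. Between Experiments 1 and 3 the Acsm1 log2 odds ratio was 0.17 (adjusted p = 0.0705, 95% interval 0.07 to 0.28), against 6.24% of 9733 genes called. It passed without Experiment 3 replicate 2 (0.20, adjusted p = 0.0275) or replicate 5 (0.20, adjusted p = 0.0220). Between Experiments 2 and 3 it was 0.03 (adjusted p = 0.943, interval -0.07 to 0.14), against 0.659% of 10020 genes called.

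Acsm2 and Acsm5 passed in none of the 3 comparisons. The Acsm2 log2 odds ratios were -0.06 (interval -0.12 to 0.01, adjusted p = 0.331), -0.04 (-0.15 to 0.07, adjusted p = 0.782) and 0.02 (-0.08 to 0.11, adjusted p = 0.977). Scaling each column to its own total gave Acsm2 -0.14 in Experiment 2 against Experiment 1 (adjusted p = 0.00509). The median of all genes moved in that direction too under this scaling, to -0.078. The Acsm5 values were -0.06 (-0.21 to 0.08, adjusted p = 0.711), -0.04 (-0.25 to 0.16, adjusted p = 0.901) and 0.02 (-0.21 to 0.25, adjusted p = 0.992). Without Experiment 3 replicate 4, which had the lowest Acsm5 AI of its group (0.328), the value for Experiment 3 against Experiment 1 turned to 0.062. The intervals bound a change in AI and do not show that AI was equal.

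The spread of AI between libraries was wider than the counts alone would give. The SD of AI over 6 libraries, divided by the binomial SD at the same counts, was 2.01, 2.53 and 4.02 for Acsm1 in Experiments 1, 2 and 3. It was 1.80, 1.36 and 4.13 for Acsm2 and 1.77, 2.501 and 3.51 for Acsm5. Each of the 3 genes had its largest ratio in Experiment 3, the 100 pg libraries, which also had the largest QCC. Acsm1 lay above the QCC in all 3 experiments (1.85, 1.47 and 2.59), Acsm5 in Experiments 2 and 3 and Acsm2 in Experiment 3. The 1.85 of Experiment 1 is a mean raised by the pairs with replicate 1, a library that the ratios also include. Where a gene lies above it, the QCC-corrected intervals and p-values given above carry less spread than its own libraries showed. Each ratio rests on 6 libraries and was not tested. A read over several SNPs was counted at each, which makes the binomial SD too small, and the part of this in the ratios was not tested.

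This spread bears on calls made from a single library. Of the 15 pairs of libraries in each experiment, Acsm1 was called biased in both libraries in 15 of 15, with and without QCC correction. Acsm2 was called in both libraries of 15 pairs in Experiments 1 and 2, but with QCC correction in Experiment 3 in both for 6 pairs, in 1 library only for 8 and in neither for 1. Acsm5, with 1408 to 2582 counts per library against 7820 to 11475 for Acsm1, was discordant in 0, 5 and 5 pairs without correction. With correction it was discordant in 7, 9 and 5 pairs, and called in both libraries in 3, 3 and 0. The part of depth in these calls was not tested. The same counts over all genes were not computed here, so these cannot be read as particular to the members.

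**Figure D4:**
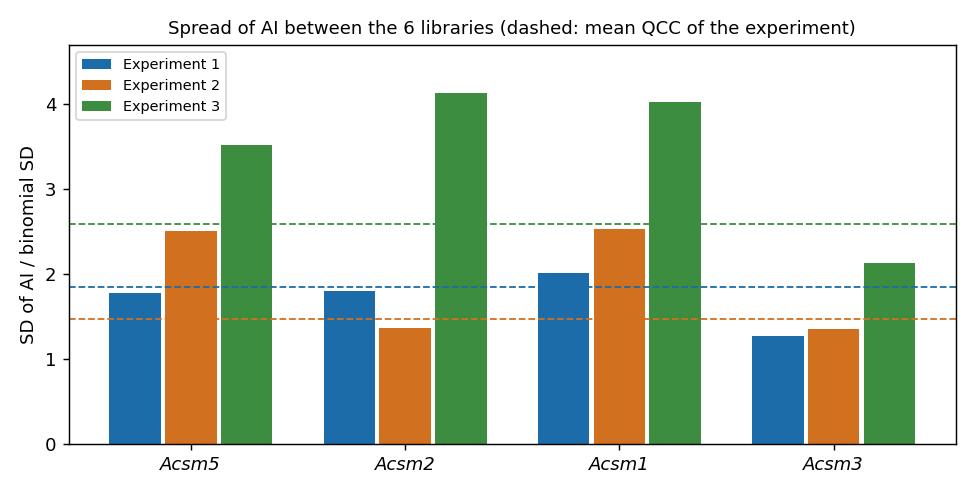
Ratio of the SD of AI over 6 libraries to the binomial SD at the same counts, for each Acsm gene and experiment, as bars, with the mean QCC of the experiment as a dashed line. For Acsm1, Acsm2 and Acsm5 the ratio is largest in Experiment 3 (4.02, 4.13 and 3.51).

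Acsm3 was counted in 17 of 18 libraries, with 0 to 30 counts, and did not have the 10 counts per library that the tests of AI needed. Its 217 counts over all kidney libraries were 197 in the paternal column and 20 in the maternal column. The pooled AI was 0.0482 in Experiment 1 (95% Wilson interval 0.0189 to 0.117), 0.0385 in Experiment 2 (0.0106 to 0.130) and 0.171 in Experiment 3 (0.105 to 0.266). These intervals cover counting error only. All maternal-column counts came from 4 libraries, with 4 of 23 counts in Experiment 1 replicate 1, 2 of 9 in Experiment 2 replicate 6, and 6 of 13 and 8 of 30 in Experiment 3 replicates 3 and 5. The other libraries with counts had an AI of 0. Acsm4, known for its expression in the olfactory epithelium, had 0 counts in all 18 kidney libraries, which allows up to 0.448 to 0.489 CPM per library (3 counts). A gene without a counted SNP would also be listed at 0.

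The neighbours of the cluster had AI values on both sides of 0.5. Within 500 kb of the outermost members lie 22 genes of the table, members included, of which 15 had 50 pooled counts in Experiment 1 and 14 in each of Experiments 2 and 3. Upstream of Acsm5, Umod, which encodes uromodulin of the thick ascending limb, had a pooled AI of 0.440, 0.460 and 0.458, and Pdilt 0.166, 0.184 and 0.164, both called below 0.5 in every experiment by the QCC-corrected test. Gp2, next to Umod, had 0.568, 0.485 and 0.549 and was not called. Downstream of Acsm3, Anks4b had 0.386, 0.348 and 0.322 and Crym, a thyroid hormone binding protein, had 0.195, 0.256 and 0.310, again called below 0.5 in every experiment. Tmem159 had 0.632, 0.520 and 0.568 and was called above 0.5 in Experiment 1. Among the window genes with enough counts for the test, Acsm2 was the only one called above 0.5 in all 3 experiments. Its neighbours Acsm5 and Acsm1 were called below. Counts differed widely between these genes, with 49549 pooled counts for Acsm2 and 6111 for Tmem159 in Experiment 3. Tmem159 was above 0.5 in all 3 experiments. In Experiment 3 the QCC-corrected test called it under Benjamini-Hochberg adjustment (adjusted p = 0.000276) and not under Bonferroni.

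Thumpd1 had a pooled AI of 0.490, 0.492 and 0.389, Dcun1d3 0.444, 0.512 and 0.384, and Eri2, which overlaps Acsm3, 0.398, 0.460 and 0.680. Lyrm1 had 0.414, 0.408 and 0.409 and passed only in Experiment 2 (Bonferroni-adjusted p = 0.0383), a call lost when any 1 of its 6 libraries was left out. Dnah3 had 0.407 in Experiment 1 and too few counts elsewhere. The Umod call of Experiment 3 (adjusted p = 0.00196) was lost without replicate 2 or 3, and its Anks4b call (adjusted p = 0.00025) without replicate 5 or 6. Between Experiments 1 and 2, AI differed for Crym (log2 odds ratio 0.51, adjusted p = 0.000134), Tmem159 (-0.67, adjusted p = 0.00113) and Umod (0.11, adjusted p = 0.0494) in the edgeR test. The QCC-corrected two-sample test did not call Crym (0.49, adjusted p = 0.0579). The Umod call was lost in 10 of 12 leave-one-out fits (adjusted p up to 0.140) and in 6 other alternatives, among them limma (adjusted p = 0.405) and DESeq2 (adjusted p = 0.0775). Between Experiments 1 and 3 it differed for Crym (0.89, adjusted p = 5.27e-05).

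**Figure D5:**
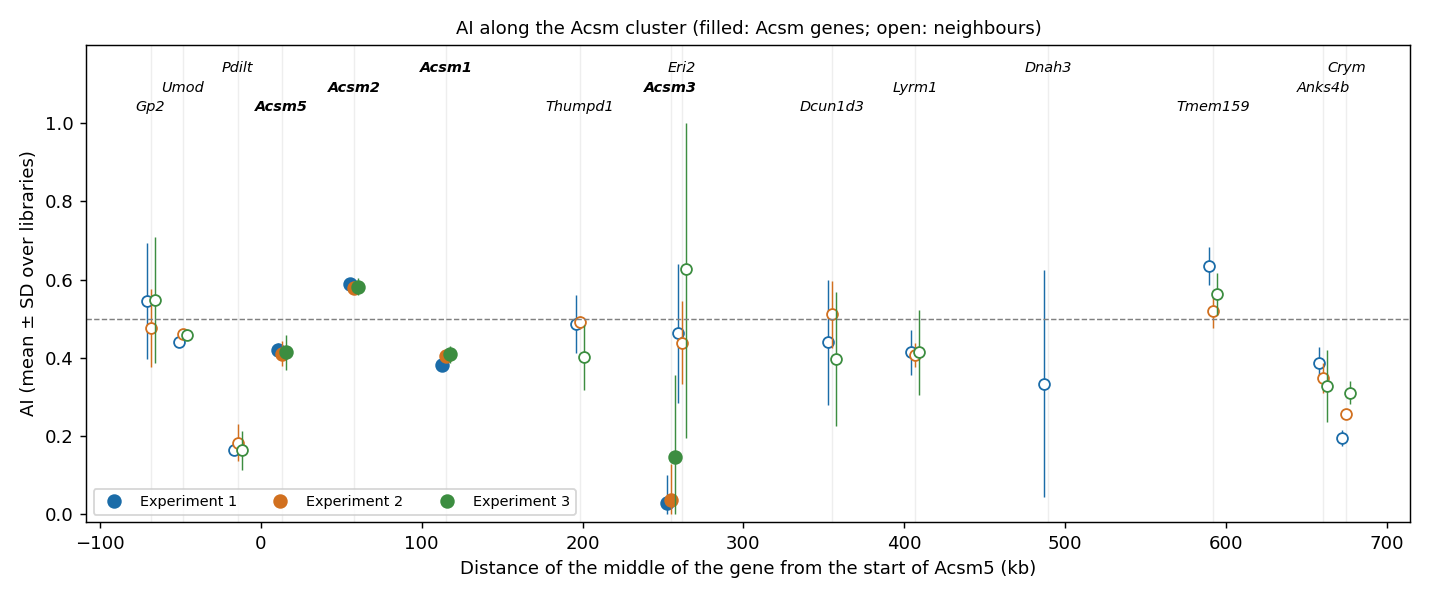
AI of the genes with 50 pooled counts within 500 kb of the Acsm cluster, by distance of the middle of the gene from the start of Acsm5 in kb and by experiment, as means over libraries with SD cut at 0 and 1, and a dashed line at 0.5. Acsm2 (0.579 to 0.589) lies above 0.5 between Acsm5 (0.410 to 0.421) and Acsm1 (0.381 to 0.410).

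The wider pathway did not move as a block with the members. Of 21 other acyl-CoA synthetases, 14 were tested, and 2 rose, 11 fell and 1 did not pass from Experiment 1 to 2, where 38.1% of all genes rose and 39.4% fell, with a median log2 difference of -0.53 against -0.03 for all genes. From Experiment 1 to 3, 2 rose, 8 fell and 4 did not pass (median -0.36 against -0.04), where 34.7% of all genes rose and 34.7% fell. From Experiment 2 to 3, 4 rose, 0 fell and 10 did not pass (0.20 against -0.00), where 8.77% of all genes rose and 6.95% fell. Slc27a1, a fatty acid transport protein with synthetase activity, fell by 2.12 on the log2 scale from Experiment 1 to 2 (adjusted p = 9.65e-15) and rose by 1.04 from Experiment 2 to 3 (adjusted p = 0.000165). Acsf2 fell by 1.29 and Aacs, which activates acetoacetate in the cytosol, fell by 1.23 from Experiment 1 to 2. Acss2, the cytosolic acetyl-CoA synthetase, rose by 0.96 from Experiment 1 to 3. Slc27a4 rose by 0.48 and Aacs by 0.62 from Experiment 2 to 3. The AI of Aacs was 0.523 in Experiment 1 and 0.417 in Experiment 2 (adjusted p = 0.000135), a larger shift than that of any Acsm member tested.

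Downstream of the acyl-CoA, 2 of 4 glycine N-acyltransferases were tested, and both rose from Experiment 1 to 2 and from Experiment 1 to 3, beside 38.1% and 34.7% of all genes. Keg1 rose by 1.18 and 1.12 and Glyat by 0.86 and 0.87 on the log2 scale. Between the SMARTseq inputs Keg1 fell by 0.07 and Glyat did not pass. Of 15 genes of medium-chain acyl-CoA oxidation, 12 rose, 2 fell and 1 did not pass from Experiment 1 to 2 (median 0.65 against -0.03 for all genes), and 11 rose, 2 fell and 2 did not pass from Experiment 1 to 3 (median 0.56 against -0.04). The shares of all genes that rose and fell were 38.1% and 39.4% in the former comparison and 34.7% and 34.7% in the latter. Eci1, an enoyl-CoA isomerase, rose by 2.09 and 2.11, and Acaa2, a thiolase, by 1.80 and 1.81. Etfa, which carries electrons from acyl-CoA dehydrogenases, rose by 1.66 from Experiment 1 to 2. Hadha, a subunit of the trifunctional protein, fell by 1.67 from Experiment 1 to 3. From Experiment 2 to 3, 1 of the 15 rose, 3 fell and 11 did not pass (8.77% and 6.95% of all genes rose and fell), with Crat rising by 0.45, Acads falling by 0.54 and Hadh falling by 0.22 on the log2 scale.

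Scaled by library totals, the oxidation genes counted 11 higher and 3 lower from Experiment 1 to 2 and 8 higher and 4 lower from Experiment 1 to 3, and the synthetases 2 higher and 11 lower and 2 higher and 10 lower. The AI of 2 of 13 other synthetases, 2 of 2 glycine N-acyltransferases and 8 of 15 oxidation genes differed between Experiments 1 and 2, against the 10.6% of all genes given above. With limma on logit AI these were 2 of 13, 0 of 2 and 3 of 15, and with each column scaled to its own total 3 of 13, 1 of 2 and 7 of 15. Between Experiments 2 and 3 no gene of the 3 lists was called for AI by edgeR.

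Several cell type marker sums also differed between the experiments, in CPM. Scaled by library totals, as CPM is, the median log2 difference of all genes was -0.389 from Experiment 1 to 2 and -0.396 from Experiment 1 to 3. The sums therefore include this general shift. With TMM scaling, 5 of 13 proximal tubule markers tested rose and 7 fell from Experiment 1 to 2, beside 38.1% and 39.4% of all genes. In the same fit 2 of 4 thick ascending limb markers rose and 2 fell. Of 8 distal tubule and collecting duct markers 4 rose and 3 fell, and of 5 podocyte markers 0 rose and 5 fell. Of 5 endothelial markers 1 rose and 4 fell, of 4 stromal markers 2 rose and 2 fell, and of 2 leukocyte markers 0 rose and 1 fell. A sum follows its most abundant genes, so it need not show these directions. Summed levels of 14 proximal tubule markers were 27692 to 29304 CPM in Experiment 1, 21722 to 21888 CPM in Experiment 2 and 22773 to 23447 CPM in Experiment 3. The 4 thick ascending limb markers summed to 4119 to 4627, 2588 to 2757 and 2510 to 2712 CPM, and the 9 distal tubule and collecting duct markers, with Pvalb at 0, to 2835 to 2897, 2996 to 3135 and 3499 to 3728 CPM. The 5 podocyte markers summed to 615 to 722, 294 to 318 and 290 to 335 CPM. The 5 endothelial markers summed to 594 to 660, 439 to 466 and 419 to 470 CPM, the 5 stromal markers to 296 to 334, 312 to 327 and 306 to 348 CPM, and the 5 leukocyte markers to 128 to 160, 31.9 to 41.3 and 27.5 to 45.6 CPM. All libraries came from 1 RNA, so the cells behind them were the same, and the part of these differences in the Acsm values was not tested. In bulk RNA in general, fewer cells of a type and less RNA per cell cannot be told apart.

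The genes most like each member over the 18 libraries were ranked by the root mean square difference of log2(CPM + 1) after centring each gene, among 9626 genes. Acsm5 was most like Slc12a1, the sodium, potassium and chloride transporter of the thick ascending limb (0.0630), Osbpl3 (0.0706) and Ndrg1 (0.0708), where the median of all genes was 0.446. Acsm2 was most like Ces1d (0.0465), Reep5 (0.0515) and Dpep1, a brush border dipeptidase (0.0603), with a median of 0.450. Acsm1 was most like Atp5a1 (0.0558), Grina (0.0626) and Rps3 (0.0628), with a median of 0.433. The libraries share 1 RNA, so this likeness is over kit, input and library and not over tissues or animals.

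In the Abl B cell clones the family was nearly absent. Acsm5, Acsm2, Acsm1 and Acsm4 had 0 counts in all libraries of Abl.1 and Abl.2 and in the repeat run of Abl.2, with totals of 19213150 to 22410835 counts, which allows up to 0.134 to 0.156 CPM (3 counts). Acsm3 had 1 and 2 counts in the Abl.1 libraries, 1 and 2 in the Abl.2 libraries and 0 and 1 in the repeat run, all in the maternal column. These counts are at or below the 3-count limit, so no fold against kidney was computed for Acsm3, and the tables of kidney and clones were made separately.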

How the data were processed

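Allelic counts per gene were analysed for 18 kidney libraries and, as a description, for the Abl libraries. According to their methods, the authors aligned reads with STAR 2.5.4a to 129S1 and Cast/Ei pseudogenomes on GRCm38, kept unique alignments and drew equal numbers of reads. They read alleles at SNPs from samtools mpileup and added them up over exons not shared by genes. The deposited count tables give the result as whole numbers, 1 column for each parent, and were not normalized. The deposited tables of pooled AI and its confidence limits were not used. Samples were grouped and numbered by their titles; for 16 of 18 kidney libraries a separate replicate label gave another number.

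QCC was fitted for the 15 pairs of libraries of each experiment, with Experiment 1 thinned to its smallest total. AI against 0.5 was tested on genes with at least 10 counts in each of 6 libraries. AI and total counts were compared between experiments with edgeR's quasi-likelihood test over all genes (at least 10 counts in each of 12 libraries for AI, in at least 6 for total counts), with Benjamini-Hochberg adjustment and a threshold of 0.05. Both columns of a library shared 1 library size in the AI fit. Acsm3 was below the AI filter and stayed out of that fit. Shares and AI of pairs of members were tested with exact permutation tests. In simulated data with 200 changed genes, 174, 147 and 138 (total counts) and 124, 80 and 96 (AI) were recovered in Experiments 2 against 1, 3 against 1 and 3 against 2.

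Named genes were the 4 members, genes within 500 kb, up to 3 list genes per comparison with the largest called change in total counts, list genes with a called AI difference of at least 0.1, and the 3 genes most like each member. The members and lists were chosen with earlier results of these data known. Alternatives used DESeq2, limma, other filters and scalings, a replicate block, all libraries in 1 fit, thinning and leaving out each library. Python 3.11.15 (numpy 2.4.6, scipy 1.17.1, pandas 2.3.3, matplotlib 3.10.9) and R 4.3.3 (edgeR 4.0.16, DESeq2 1.42.0, limma 3.58.1) were used.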

Additional observations from a re-analysis of the deposited data

Results flagged for a closer look

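In Experiment 1 the highest Acsm1 level stood apart from the other 5 libraries by a gap of 0.693 of the range of the group, and this library, replicate 1, also had the highest Acsm1 share (gap 0.683 of the range) and the lowest Acsm5 share (gap 0.684). The lowest Acsm5 AI of Experiment 3, in replicate 4, stood apart by 0.665 of the range. The highest Acsm3 AI in Experiment 1 (replicate 1) and in Experiment 2 (replicate 6) each stood apart by the whole range, a gap of 1, because the other libraries had 0 counts in the maternal column. The limit for 6 samples is 0.625, 35 groups of samples were examined, and chance passes it in about 1 of 20 groups. The AI of Acsm1 was higher by 0.0231 in Experiment 2 than in Experiment 1, a difference between kits and inputs that edgeR's test called and that several alternatives did not.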

How the results depend on the processing

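Of the comparisons of members, the direction and call of Acsm2 and Acsm5 in total counts between Experiments 1 and 2, of Acsm5 between 1 and 3, and of the 3 biased members against 0.5 held under every alternative run. Counts of genes with AI differing from 0.5 (1954, 2623 and 1453 in Experiments 1, 2 and 3) rose without QCC correction to 3725 and 4104 in Experiments 1 and 3, with Benjamini-Hochberg adjustment to 3916, 4857 and 3036, and with edgeR's allele term to 3736, 4726 and 2627. Scaling by library totals gave Acsm1 -0.22 for Experiment 2 against 1, -0.22 for 3 against 1 and 0.00094 for 3 against 2, and for 3 against 1 Acsm2 -0.068 and Acsm3 -0.065. With no filter on low counts Acsm1 had 0.10 (3 against 1, adjusted p = 0.0547), and with DESeq2 0.0024 (3 against 2). As a log2 ratio the Acsm3 share differed by -0.447 (3 against 1). For the AI of Acsm1 in Experiment 2 against 1, limma gave 0.14 (adjusted p = 0.332), the QCC-corrected two-sample test 0.14 (0.106) and own-column scaling 0.062 (0.350), which gave Acsm2 -0.14 (0.00509). For 3 against 1, DESeq2 gave Acsm1 0.17 (0.0428). Genes called for AI in 2 against 1 were 691 with limma and 421 with the QCC-corrected test (main value 1069), in 3 against 1 284 with the latter (607), and in 3 against 2 101 with DESeq2 and 26 with limma (66).

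The replicate numbers, taken from titles that a separate label contradicts for 16 of 18 libraries, did not pair the libraries: deviations of same-numbered libraries correlated between -0.0215 and 0.0266 over 6539 genes, and 0, 1 and 2 of 6 libraries correlated best with their own number. With the replicate block the Acsm1 AI difference of 3 against 1 was 0.17 (adjusted p = 0.0313), the genes called for AI in 3 against 2 were 28, and the Acsm5 share in 3 against 2 differed by 0.262 (paired exact permutation test, adjusted p = 0.0469).

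Leaving out each library in turn gave these ranges. In total counts Acsm1 ranged from 0.1004 to 0.184 (3 against 1) and from -0.0101 to 0.0085 (3 against 2), and Acsm3 from -0.104 to 0.553 (3 against 1). Log2 odds ratios of AI ranged for Acsm1 from 0.114 to 0.160 (2 against 1) and from 0.147 to 0.204 (3 against 1), for Acsm5 from -0.0968 to 0.0621 (3 against 1) and from -0.0353 to 0.125 (3 against 2), and for Acsm2 from -0.0115 to 0.0470 (3 against 2), with 30 to 66 genes called in 3 against 2. Shares ranged for Acsm1 from -0.524 to 0.674 points (3 against 1), for Acsm5 from 0.122 to 0.333 (3 against 2), and for Acsm3 from -0.0262 to -0.0144, from -0.0105 to 0.0234 and from 0.0105 to 0.0444. Acsm2 minus Acsm1 AI ranged from 0.205 to 0.210, 0.171 to 0.179 and 0.163 to 0.182, Acsm5 minus Acsm2 from -0.172 to -0.165, -0.177 to -0.158 and -0.173 to -0.156, and Acsm5 minus Acsm1 from 0.0324 to 0.0439, -0.0035 to 0.0136 and -0.0103 to 0.0256 in Experiments 1, 2 and 3. With 5 libraries these exact permutation tests cannot go below p = 0.0625. Pooled AI ranged from 0.465 to 0.507 for Thumpd1 in Experiment 1 and from 0.487 to 0.543 for Dcun1d3 in Experiment 2. The cause of these changes was not tested. Depth limits Acsm3, at 0 to 30 counts per library.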

Other observations

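Outside the Acsm genes, a few genes of the marker lists had called AI differences of at least 0.1 between experiments. The AI of Slc5a12, a lactate transporter of the proximal tubule, was 0.481 with the NEBNext kit and 0.704 and 0.663 in Experiments 2 and 3 (edgeR's quasi-likelihood test, adjusted p = 2.71e-16 and 4.20e-07 against Experiment 1). The AI of Aqp3, a water channel of the collecting duct, was 0.534, 0.693 and 0.802, and differed in all 3 comparisons (adjusted p = 5.44e-07, 7.53e-07 and 0.00722). Slc4a1, an anion exchanger, had 0.519 in Experiment 1 and 0.701 in Experiment 3 (adjusted p = 0.00244).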
